A study of Mus musculus with 6 samples.

Results

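The light chain variable (V) segments of the mouse were examined in bulk tibia RNA from mice lacking *Atrx* in the osteoblast lineage. A segment was taken as a member when its GENCODE M21 gene type was an immunoglobulin V gene and its symbol began with *Igkv* or *Iglv*. This gave 103 of the 55401 gene identifiers in each count file, of which 100 were kappa segments of 20 numbered families on chromosome 6 and 3 were lambda segments on chromosome 16. Each library came from the tibia of 1 male mouse at 8 weeks of age. The 3 Atrx-cKO mice carried *Osterix-Cre* and a floxed *Atrx* allele (*Osterix-Cre; Atrxf/y*), and the 3 control mice carried the floxed allele alone (*Atrxf/y*). Cre in this line is a Tet-off transgene driven from the *Osterix* (*Sp7*) promoter, which is active in preosteoblasts. Doxycycline held it off until 3 weeks of age. No mouse here carried Cre with an intact *Atrx*, so the transgene and the loss of *Atrx* cannot be told apart.

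An antibody light chain is assembled during B cell development in bone marrow, when RAG1 and RAG2 join 1 V segment to 1 joining (J) segment. In the mouse most light chains are kappa and a small part are lambda, and each B cell and its progeny normally express a single rearranged light chain. The V segment encodes most of the antigen-binding domain, and the constant gene (*Igkc* for kappa, *Iglc1*, *Iglc2* and *Iglc3* for lambda) encodes the rest of the chain. A count on a V segment in whole bone therefore comes from B-lineage cells in the marrow, with plasma cells holding the most RNA per cell. *Osterix-Cre* is not directed at those cells. In bulk tissue, fewer B-lineage cells and less light chain RNA per cell cannot be told apart.

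Counts on genes ranged from 50977777 to 70571655 per library, so that 3 counts, the most a count of 0 allows, corresponded to 0.0425 to 0.0588 CPM (counts scaled to library size), counting error only. *Atrx* itself was counted 8929, 9489 and 10081 times in Atrx-cKO replicates 1, 2 and 3 and 9955, 11089 and 7873 times in the controls, a log2 fold change of -0.05 (standard error, SE, 0.08). The count of the whole gene thus did not separate the genotypes, and it checks the deletion poorly, because 1 exon is removed and only in part of the cells. The osteoblast list held 173632 and 154508 summed CPM in control replicates 2 and 3, against 113322 to 121312 in the other libraries. The erythroid list was lowest in the same controls, at 1937 and 2384 CPM, against 3460 to 5725 in the other libraries. Skeletal muscle genes summed to 8813 CPM in control replicate 3 against 564 to 1885 in the other libraries.

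The V exons of 7 segments are printed because the results turn on them, either as the most used segments, as those that differed most between the genotypes, or as the lambda set. They were read from the GENCODE M21 transcripts on GRCm38, 5′ to 3′ along the gene, with the last 300 bases printed where the exon is longer. For the kappa segments and *Iglv3*, capitals run from the last in-frame cysteine codon (TGT or TGC) to the end of the exon, the germline part that goes into the third complementarity-determining region. *Igkv1-117* (chr6:68121528-68121827, plus strand) was the most abundant segment and *Igkv19-93* (chr6:68736297-68736591, minus strand) the one with the widest range among the abundant ones. *Igkv5-48* (chr6:69726573-69726870, minus strand) and *Igkv12-46* (chr6:69764523-69764820, minus strand) had the highest log2 fold changes.
Igkv1-117: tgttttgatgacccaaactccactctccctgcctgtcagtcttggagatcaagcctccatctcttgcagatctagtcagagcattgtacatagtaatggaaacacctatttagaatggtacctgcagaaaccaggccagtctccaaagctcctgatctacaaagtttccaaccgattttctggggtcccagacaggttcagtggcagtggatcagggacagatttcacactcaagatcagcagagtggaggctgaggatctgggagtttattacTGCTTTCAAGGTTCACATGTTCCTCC
Igkv19-93: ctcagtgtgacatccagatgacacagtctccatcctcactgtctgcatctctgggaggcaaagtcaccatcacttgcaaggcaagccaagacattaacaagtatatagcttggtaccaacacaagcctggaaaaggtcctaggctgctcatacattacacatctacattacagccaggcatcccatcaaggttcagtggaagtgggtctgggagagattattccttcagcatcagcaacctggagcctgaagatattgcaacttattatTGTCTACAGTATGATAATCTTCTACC
Igkv5-48: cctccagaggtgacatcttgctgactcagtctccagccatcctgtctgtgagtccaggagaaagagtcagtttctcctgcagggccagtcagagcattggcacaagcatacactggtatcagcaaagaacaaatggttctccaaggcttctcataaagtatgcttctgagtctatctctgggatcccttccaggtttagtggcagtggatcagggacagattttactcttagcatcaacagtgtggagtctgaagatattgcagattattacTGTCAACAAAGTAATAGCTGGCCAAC
Igkv12-46: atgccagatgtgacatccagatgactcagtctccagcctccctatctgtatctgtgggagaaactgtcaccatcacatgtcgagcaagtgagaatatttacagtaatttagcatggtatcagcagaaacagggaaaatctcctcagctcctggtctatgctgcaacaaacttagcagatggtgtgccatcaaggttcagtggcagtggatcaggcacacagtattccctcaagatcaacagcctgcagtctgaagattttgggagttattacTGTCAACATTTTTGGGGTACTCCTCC

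The lambda V exons, by their last 300 bases, were *Iglv1* (chr16:19085017-19085316), *Iglv2* (chr16:19260401-19260700) and *Iglv3* (chr16:19241207-19241506), all on the minus strand. They show how alike *Iglv1* and *Iglv2* are, with capitals in *Iglv2* marking each base that differs from *Iglv1*.
Iglv1: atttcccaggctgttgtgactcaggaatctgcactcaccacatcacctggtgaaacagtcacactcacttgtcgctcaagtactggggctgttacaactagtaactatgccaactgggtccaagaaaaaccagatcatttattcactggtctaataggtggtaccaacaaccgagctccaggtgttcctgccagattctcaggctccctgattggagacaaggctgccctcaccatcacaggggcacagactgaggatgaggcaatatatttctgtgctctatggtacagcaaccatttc
Iglv2: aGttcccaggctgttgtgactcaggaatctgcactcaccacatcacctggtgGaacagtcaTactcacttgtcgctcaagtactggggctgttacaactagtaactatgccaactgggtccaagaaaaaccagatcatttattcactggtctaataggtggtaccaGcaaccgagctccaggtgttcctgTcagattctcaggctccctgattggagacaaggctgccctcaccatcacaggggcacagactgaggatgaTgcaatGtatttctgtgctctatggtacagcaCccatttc
Iglv3: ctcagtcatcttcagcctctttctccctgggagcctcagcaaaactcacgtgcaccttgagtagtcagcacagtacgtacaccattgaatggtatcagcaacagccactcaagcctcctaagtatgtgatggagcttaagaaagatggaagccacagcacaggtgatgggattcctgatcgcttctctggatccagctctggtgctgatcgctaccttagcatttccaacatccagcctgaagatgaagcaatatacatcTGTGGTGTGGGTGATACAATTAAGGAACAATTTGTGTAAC
Aligned at the 3′ end, the 302 bases of *Iglv2* differed from *Iglv1* by 8 substitutions. These were T4G, A55G, C64T, A169G, C193T, G263T, A269G and A295C, with the *Iglv1* base first and positions counted from 1 at the 5′ end of the whole *Iglv2* exon, which begins 2 bases before the run printed. *Iglv3* was 54.0% identical to *Iglv1*. Among the kappa segments above, *Igkv5-48* and *Igkv12-46* were 64.7% identical to each other, and neither transcript shared any 100-base window with another light chain V transcript. By contrast 42 of the 103 members, holding 54.5% of the member counts, shared at least 1 such window with another light chain V transcript, pseudogenes included, though in 1 alone, *Igkv6-20*, were most windows shared. The median identity of a member to its nearest relative was 93.3%. Reads lying wholly within a shared stretch have no unique alignment and were left out of the deposited counts, and the part this played in single segments was not tested.

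The summed light chain V counts were 9785, 6268 and 8962 in Atrx-cKO replicates 1, 2 and 3 and 10145, 6268 and 6080 in control replicates 1, 2 and 3. In CPM, here relative to all counts on genes, this was 169, 114 and 157 in Atrx-cKO and 187, 88.8 and 119 in control. The groups overlapped, with the highest and the lowest library both among the controls, and the means were 147 ± 29.1 CPM (SD, n = 3) for Atrx-cKO against 132 ± 49.98 CPM (SD, n = 3) for control. The kappa constant gene moved with the sum, but it is part of the same joined transcripts and so is not separate evidence of the level. *Igkc* had 12857, 9206 and 12727 counts in Atrx-cKO and 13251, 8863 and 8722 in control, with a log2 fold change of 0.12 (SE 0.21). Kappa V counts per *Igkc* count stayed between 0.620 and 0.701 in all 6 libraries. Heavy chain V segments, summed over 113 genes, gave 125, 83.5 and 116 CPM in Atrx-cKO and 153, 69.2 and 86.1 in control, so the highest and lowest libraries were again control replicates 1 and 2.

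Markers of B-lineage stages varied between libraries as well. The B cell list, which holds the B cell receptor subunits *Cd79a* and *Cd79b* and the surface proteins *Ms4a1* and *Cd22*, summed to 131 to 164 CPM in Atrx-cKO and 74.9 to 186 in control. The pro-B and pre-B list, with the recombinase genes *Rag1* and *Rag2* and the surrogate light chain genes *Vpreb1* and *Igll1*, summed to 156 to 245 CPM in Atrx-cKO and 128 to 225 in control. In both lists control replicate 2 was the lowest library. In the plasma cell list, *Jchain*, which links antibody polymers, had a mean of 59.4 ± 7.75 CPM (SD, n = 3) with Cre against 58.2 ± 14.8 CPM (SD, n = 3) without. The others tested had log2 fold changes of 0.39 (*Derl3*), 0.10 (*Xbp1*), 0.08 (*Irf4*), -0.12 (*Mzb1*), -0.21 (*Prdm1*) and -0.26 (*Sdc1*). Their levels were unlike, from 191 to 245 CPM for *Xbp1* to 0.420 to 0.600 CPM for *Mzb1*. The list is therefore a poor measure of plasma cell level. In the quasi-likelihood test of edgeR, adjusted by the Benjamini-Hochberg method, none of the 9 pro-B and pre-B genes, the 7 B cell genes or the 7 plasma cell genes tested was called, and none had an unadjusted p under 0.05. The median log2 fold changes were 0.08, 0.32 and 0.03 respectively, against 0.0050 over all genes tested. Median log2 fold changes of the other lists, also with no gene called, were 0.20 for neutrophil, 0.12 for erythroid, 0.09 for T cell, -0.34 for osteoblast and -1.63 for skeletal muscle genes. The part of cell makeup in the segment values was not tested.

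Usage was broad but uneven. Of the 103 segments, 72 had at least 1 count in every library, 57 had at least 10 in every library, and 3 (*Igkv1-131*, *Igkv20-101-2* and *Igkv8-34*) were at 0 throughout. Each library held 65 to 73 segments with at least 10 counts. The 10 most abundant segments by mean CPM, scaled by the trimmed mean of M values (TMM), were *Igkv1-117*, *Igkv1-110*, *Igkv19-93*, *Iglv1*, *Igkv10-96*, *Igkv6-15*, *Igkv10-94*, *Igkv5-48*, *Igkv8-30* and *Igkv12-46*. These 10 carried 46.0% of all member counts. Their annotated exons are 347 to 404 bases long, and per kilobase of exon the mean level fell from 32.0 CPM for *Igkv1-117* to 9.96 CPM for *Igkv12-46*. The median mean level over all 103 was 0.702 CPM.

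*Igkv1-117* had 1097, 430 and 1026 counts in Atrx-cKO and 881, 533 and 501 in control. It was the largest segment in each of the 3 Atrx-cKO libraries, at 11.2%, 6.86% and 11.4% of light chain V counts, although its groups overlapped and its log2 fold change was 0.36 (SE 0.36). The largest segment differed among the controls, being *Igkv19-93* in replicate 1 (13.1%), *Igkv1-110* in replicate 2 (10.2%) and *Igkv10-94* in replicate 3 (9.18%). *Igkv1-110*, whose V exon is 96.8% identical to that of *Igkv1-117*, had 539, 379 and 313 counts in Atrx-cKO and 641, 642 and 554 in control. In CPM it was below every control in all Atrx-cKO libraries, at 7.06 ± 1.99 (SD, n = 3) against 10.8 ± 1.06 (SD, n = 3) for control.

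Large differences between mice of the same genotype were the rule. *Igkv19-93*, the only member of its family, had 984, 129 and 133 counts in Atrx-cKO and 1325, 40 and 172 in control. It was high in 1 mouse of each genotype and its CPM spanned 38.7-fold, the widest range among the 57 segments with at least 10 counts in every library. *Igkv10-94* had 84, 183 and 318 counts in Atrx-cKO and 249, 40 and 558 in control, and *Igkv6-15* had 235, 103 and 245 in Atrx-cKO and 582, 71 and 424 in control. For both, the lowest and highest libraries were controls. *Igkv10-96* was steadier, at 415, 252 and 264 counts in Atrx-cKO and 386, 318 and 155 in control. *Igkv8-30* had 113, 114 and 413 counts in Atrx-cKO and 259, 104 and 313 in control, 1 high library among Atrx-cKO and 2 among controls. Across both genotypes together, the 72 segments with a count in every library had a highest CPM that was a median 5.63 times the lowest. For 43 segments it was more than 5 times the lowest. Some of these segments had few counts, where counting error alone widens the ratio. The within-genotype SD of log2 CPM had a median of 0.51 over the 70 tested members, compared with 0.26 over 2569 other tested genes of like mean level and 0.17 over all genes tested.

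**Figure D1:**
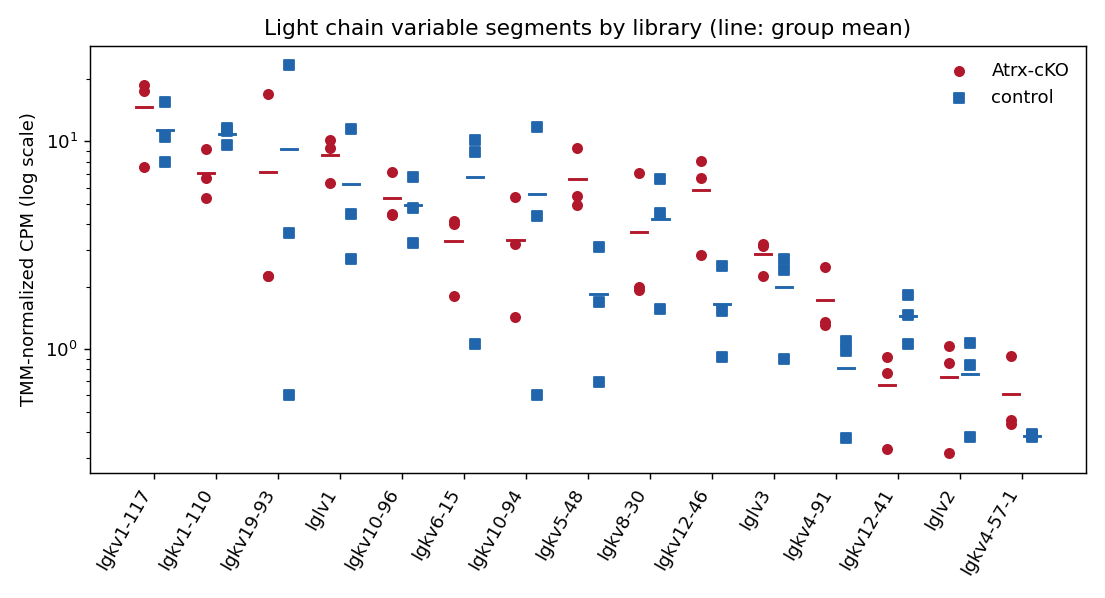
TMM-normalized CPM (log axis) of the 15 named light chain V segments, ordered by mean level, in 3 Atrx-cKO libraries (red circles) and 3 control libraries (blue squares), with group means as lines. *Igkv5-48* and *Igkv12-46* lie higher in every Atrx-cKO library than in any control, while *Igkv19-93* spans 38.7-fold between 2 controls.

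Of the 103 members, 70 passed the expression filter and were tested, and these held 97.9% of the member counts. The other 33, all kappa segments, had at most 176 counts each over the 6 libraries. A segment that is abundant in 1 genotype only can pass the filter through that genotype. A segment was called when edgeR's quasi-likelihood test gave an adjusted p under 0.05 and its level changed by 1 or more on the log2 scale. By this rule 0 of 70 segments were called in either direction, the lowest adjusted p being 0.992. Among all 20636 genes tested, 0.0145% were called higher and 0.0% lower in Atrx-cKO. At an unadjusted p under 0.05 there were 9 of 70 segments (12.9%), 6 higher and 3 lower, where 1.59% of all genes were higher and 2.05% lower (3.64% in all). Segments share their libraries and their source cells, and they vary more between mice than other genes, so this count is a description. Complete separation of the groups was seen for 6 of 70 segments (8.57%), against 8.31% of all genes tested (4.3% higher and 4.01% lower in every Atrx-cKO library). *Igkv5-48*, *Igkv12-46*, *Igkv4-91* and *Igkv4-57-1* were higher in every Atrx-cKO library, and *Igkv1-110* and *Igkv12-41* were lower. The log2 fold change was positive for 40 segments and negative for 30, with a median of 0.11 and a range from -1.36 to 1.83.

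*Igkv5-48* (ENSMUSG00000076563) had 321, 281 and 546 counts in Atrx-cKO and 178, 113 and 33 in control. Its share of light chain V counts was 3.28%, 4.48% and 6.09% in Atrx-cKO and 1.76%, 1.80% and 0.543% in control. All Atrx-cKO libraries were above all controls, at 6.56 ± 2.36 CPM (SD, n = 3) against 1.84 ± 1.22 (SD, n = 3). This was a log2 fold change of 1.83 (SE 0.50). The adjusted p was 0.992 by edgeR's quasi-likelihood test but 0.00898 by the DESeq2 Wald test. *Igkv12-46* (ENSMUSG00000076564) had 471, 163 and 392 counts in Atrx-cKO and 144, 61 and 73 in control. Its share was 4.81%, 2.60% and 4.37% in Atrx-cKO and 1.42%, 0.973% and 1.20% in control. Here too the groups did not overlap, at 5.85 ± 2.69 CPM (SD, n = 3) against 1.66 ± 0.811 (SD, n = 3). This was a log2 fold change of 1.82 (SE 0.47), at an adjusted p of 0.992 by edgeR but 0.00526 by DESeq2.

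Both segments were already listed by the study as higher in these same libraries, so their direction is not independent evidence. DESeq2 gave an adjusted p to 86 members and called these 2, both higher, and no other, the next lowest adjusted p being 0.358. Of the 23938 genes given an adjusted p, DESeq2 called 0.0418% higher and 0.0543% lower. Neither of the 2 calls held in every fit with 1 library left out, and such fits also have less power. With 1 library at a time left out of the DESeq2 fit, *Igkv5-48* had an adjusted p under 0.05 without control replicate 1 (1.11e-06) or control replicate 3 (0.0403). It was at 0.110, 0.0727 and 0.620 without Atrx-cKO replicates 1, 2 and 3, and at 0.9999 without control replicate 2. For *Igkv12-46* the DESeq2 adjusted p was under 0.05 without Atrx-cKO replicate 2 (0.000241) or control replicate 1 (3.63e-05). It was at 0.369 and 0.302 without Atrx-cKO replicates 1 and 3, and at 0.184 and 0.102 without control replicates 2 and 3. The log2 fold change stayed positive throughout, from 1.43 to 2.43 for *Igkv5-48* and from 1.52 to 2.27 for *Igkv12-46* in the edgeR fits without 1 library each.

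Close relatives of the pair did not move alike. *Igkv5-43*, 84.9% identical to *Igkv5-48*, had 182, 123 and 387 counts in Atrx-cKO and 249, 71 and 95 in control, with overlapping groups and a log2 fold change of 0.67 (SE 0.57). *Igkv12-44*, 94.6% identical to *Igkv12-46*, had 252, 103 and 132 counts in Atrx-cKO and 114, 64 and 46 in control, with a log2 fold change of 1.09 (SE 0.43) and overlapping CPM. *Igkv12-41*, 94.97% identical to *Igkv12-46*, went the other way, with 45, 19 and 54 counts in Atrx-cKO and 83, 71 and 87 in control. Its CPM was 0.673 ± 0.304 (SD, n = 3) against a control level of 1.45 ± 0.381 (SD, n = 3), below every control in each Atrx-cKO library, with a log2 fold change of -1.10 (SE 0.41). *Igkv5-45* was too low to test, with 30 counts in all, against 1107 for *Igkv5-43*, to which it is 99.0% identical. A read that matches both equally has no unique alignment.

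The other segments with separated groups were less abundant. *Igkv4-91* had 146, 75 and 80 counts in Atrx-cKO and 56, 25 and 52 in control, with a log2 fold change of 1.09 (SE 0.45). *Igkv4-57-1* had 54, 25 and 27 counts in Atrx-cKO and 22, 26 and 18 in control, with a log2 fold change of 0.65 (SE 0.40). Its 2 lower Atrx-cKO libraries, at 0.438 and 0.458 CPM, stood barely above the controls, at 0.378 to 0.390 CPM. For *Igkv1-110* the log2 fold change was -0.62 (SE 0.21). None of these was called by edgeR or DESeq2.

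Grouped by family number, *Igkv1* (10 segments) was the largest family at a mean of 18.7% of light chain V counts, followed by *Igkv6* (9 segments) at 12.0% and *Igkv4* (26 segments) at 11.4%. The lambda segments came next at 7.46%. *Igkv4* thus held the most segments, but less of the counts than *Igkv1*, most of whose counts came from *Igkv1-117* and *Igkv1-110*. At the other end, *Igkv11*, *Igkv7*, *Igkv18* and *Igkv20* each have 1 segment, and none reached 0.3% of any library.

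Of the 20 families with any count, lambda included, 3 had groups that did not overlap. Among single genes tested 8.31% did so, but in CPM, a measure unlike these shares, which are not independent of each other. *Igkv5* took 8.12%, 8.02% and 10.7% in Atrx-cKO and 4.48%, 5.65% and 2.45% in control, or 8.96 ± 1.54% (SD, n = 3) against 4.19 ± 1.62% (SD, n = 3). *Igkv12* took 9.38%, 5.14% and 7.06% in Atrx-cKO and 4.14%, 5.06% and 4.34% in control, so Atrx-cKO replicate 2 lay just above control replicate 2. These families contain *Igkv5-48* and *Igkv12-46*. When these were left out, the rest of *Igkv5* took 4.56 ± 0.736% (SD, n = 3) for Atrx-cKO against 2.87 ± 1.002% (SD, n = 3) for control, and the rest of *Igkv12* took 3.41 ± 1.21% (SD, n = 3) against 3.35 ± 0.699% (SD, n = 3), with overlapping groups in each case. *Igkv13*, with 2 segments, was lower in Atrx-cKO, at 0.480%, 0.957% and 0.993% against 1.04%, 1.99% and 1.25%, from 47 to 125 counts per library. Single family shares such as *Igkv19*, from 0.638% to 13.1%, differed far more within a genotype than between the group means of 4.53% and 5.51%.

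**Figure D2:**
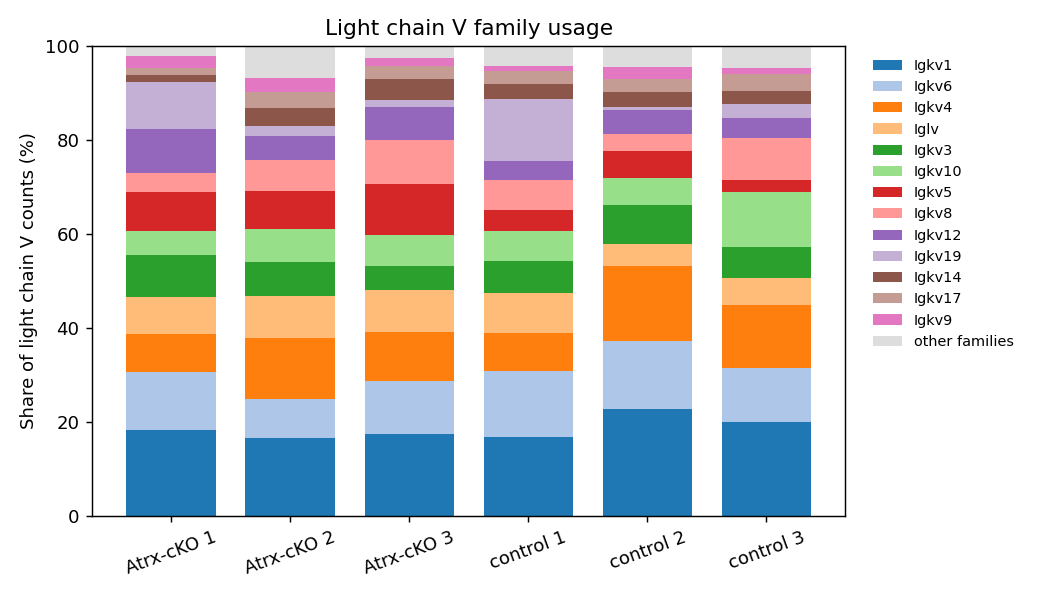
Stacked bars of the share of light chain V counts (%) taken by the 13 largest families and all others in each of the 6 libraries. *Igkv1* is the largest family in every library, *Igkv5* is wider in the 3 Atrx-cKO libraries, and *Igkv19* is wide in Atrx-cKO replicate 1 and control replicate 1 alone.

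The lambda share of light chain V counts, which measures the kappa to lambda balance, was 7.93%, 8.93% and 8.87% in Atrx-cKO and 8.62%, 4.75% and 5.66% in control. The 95% Wilson intervals ran from 7.41% to 9.67% across the Atrx-cKO libraries and control replicate 1 lay within them at 8.08% to 9.18%. Control replicates 2 and 3 lay lower, at 4.25% to 5.31% and 5.10% to 6.27%. The means were 8.58 ± 0.562% (SD, n = 3) and 6.34 ± 2.02% (SD, n = 3), with groups that overlapped through control replicate 1. In ratios, kappa V counts were 10.2 to 11.6 times lambda V counts in Atrx-cKO and 10.6 to 20.03 times in control.

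The constant genes, whose reads do not depend on V segment identity, also had their lowest lambda shares in control replicates 2 and 3. They are read from the same joined transcripts in the same mice, so they are not separate evidence. Lambda constant counts (*Iglc1* to *Iglc4*) were 7.76%, 9.77% and 8.71% of all light chain constant counts in Atrx-cKO and 9.03%, 6.16% and 6.49% in control. The means were 8.75 ± 1.01% (SD, n = 3) and 7.23 ± 1.57% (SD, n = 3), a difference of 1.52 percentage points. The exact permutation test gave a two-sided p of 0.3, where 3 mice against 3 cannot go below 0.1. *Iglc1*, *Iglc2* and *Iglc3* had log2 fold changes of 0.37, 0.34 and 0.33 (SEs 0.49, 0.24 and 0.27), each with an adjusted p of 0.992 in edgeR's quasi-likelihood test. *Iglc4* had at most 5 counts in any library and was not tested.

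**Figure D3:**
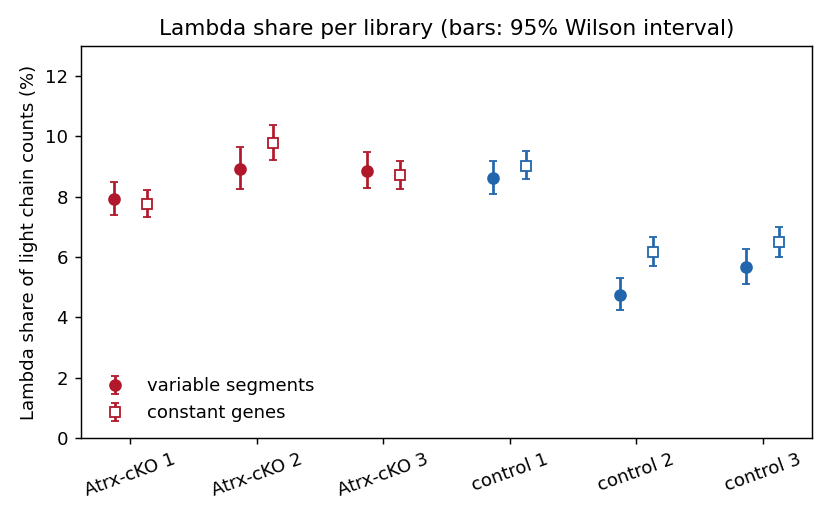
Lambda share (%) of light chain counts per library from V segments (filled circles) and constant genes (open squares), Atrx-cKO in red and control in blue, with 95% Wilson intervals that cover counting error only. Control replicates 2 and 3 lie at 4.75% to 6.49% on both measures, below the other 4 libraries.

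Within lambda, *Iglv1* was the main segment in every library, with 594, 359 and 550 counts in Atrx-cKO and 658, 182 and 212 in control. It made up 64.1% to 76.5% of lambda V counts in Atrx-cKO and 61.1% to 75.3% in control. *Iglv3*, the divergent member, had 132, 183 and 184 counts in Atrx-cKO and 155, 60 and 114 in control, and *Iglv2* had 50, 18 and 61 in Atrx-cKO and 61, 56 and 18 in control. *Iglv2* reached 18.8% of lambda V counts in control replicate 2 and 3.21% to 7.67% in the other libraries. Log2 fold changes were 0.46 (SE 0.48) for *Iglv1*, -0.06 (SE 0.53) for *Iglv2* and 0.52 (SE 0.39) for *Iglv3*, each with overlapping groups. With 1 library left out, *Iglv1* ran from 0.09 (without control replicate 2) to 1.26 (without control replicate 1) and *Iglv3* from 0.16 to 0.81, without the same libraries. Despite the likeness of their exons, *Iglv1* and *Iglv2* shared few 100-base windows with other transcripts, 1.71% and 2.01% of those in their transcripts.

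The evenness of usage, as the inverse Simpson index (the number of equally used segments that would give the same concentration), was 22.7, 35.3 and 27.2 in Atrx-cKO and 21.9, 30.5 and 23.9 in control. The groups overlapped at 28.4 ± 6.38 (SD, n = 3) and 25.4 ± 4.48 (SD, n = 3). The 10 largest segments of each library took 42.7% to 56.2% of its light chain V counts. Replicate 2 of each genotype was the most even library and replicate 1 the least even.

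Libraries of the same genotype were not much closer to each other than to the other genotype. The Bray-Curtis distance between usage profiles (0 for identical shares, 1 for no segment in common) was 0.261 to 0.314 among Atrx-cKO libraries, 0.301 to 0.361 among controls and 0.260 to 0.413 between genotypes. The lowest of all 15 pairs joined Atrx-cKO replicate 1 and control replicate 1, the 2 libraries with high *Igkv19-93*. Spearman's rho between libraries over the 103 segments was 0.701 to 0.885, a description over segments that are not independent. Chi-square per degree of freedom was 16.3 to 38.9 over the 15 pairs, and no 2 libraries held the same profile.

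**Figure D4:**
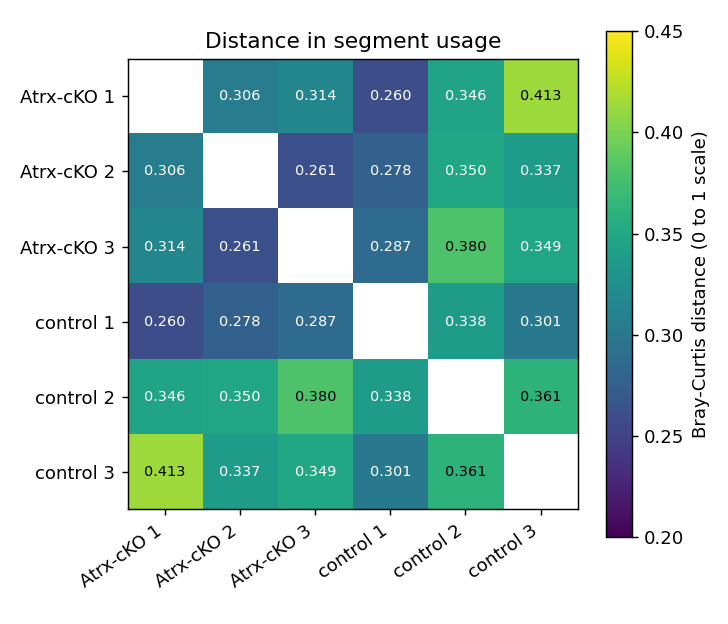
Bray-Curtis distance in light chain V usage for each pair of the 6 libraries, as a colour scale with the values printed. Pairs within a genotype span 0.261 to 0.361 and pairs across genotypes span 0.260 to 0.413.

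Kappa segments lie along about 3170 kb upstream of *Igkc*, in either transcriptional orientation. Those in the orientation of *Igkc* (38 segments) join by deletion of the DNA between, and the 62 in the opposite orientation join by inversion. The former took 40.3%, 46.7% and 40.5% of kappa V counts in Atrx-cKO and 41.7%, 49.1% and 41.6% in control, with overlapping groups. Divided by rank of distance, the 33 nearest segments (22.3 to 783 kb) took 25.1% to 29.8% of kappa V counts and the 34 farthest (1891 to 3170 kb) took 40.8% to 52.0%. The middle 33 (825 to 1863 kb) took 24.7%, 27.6% and 30.5% in Atrx-cKO and 18.2%, 26.7% and 21.7% in control. The groups overlapped through control replicate 2, at 27.6 ± 2.88% (SD, n = 3) against 22.2 ± 4.28% (SD, n = 3). The middle share includes the counts of the segments with the highest log2 fold changes, named below. It is therefore not separate evidence of a difference by position, and the share without those segments was not tested. The median log2 fold change was 0.10, 0.09 and 0.11 in the near, middle and far sets.

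*Igkv5-48* and *Igkv12-46*, the segments with the highest log2 fold changes, are both in the middle set, at 999 and 961 kb from *Igkc*. Tested segments around them had log2 fold changes of 1.45 for *Igkv4-53* at 1077 kb, -0.11 for *Igkv4-50* at 1025 kb, 1.09 for *Igkv12-44* at 911 kb, 0.67 for *Igkv5-43* at 902 kb and -1.10 for *Igkv12-41* at 868 kb. Values of both signs thus stood side by side. These neighbours were chosen for their position after the values of the pair were known.

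**Figure D5:**
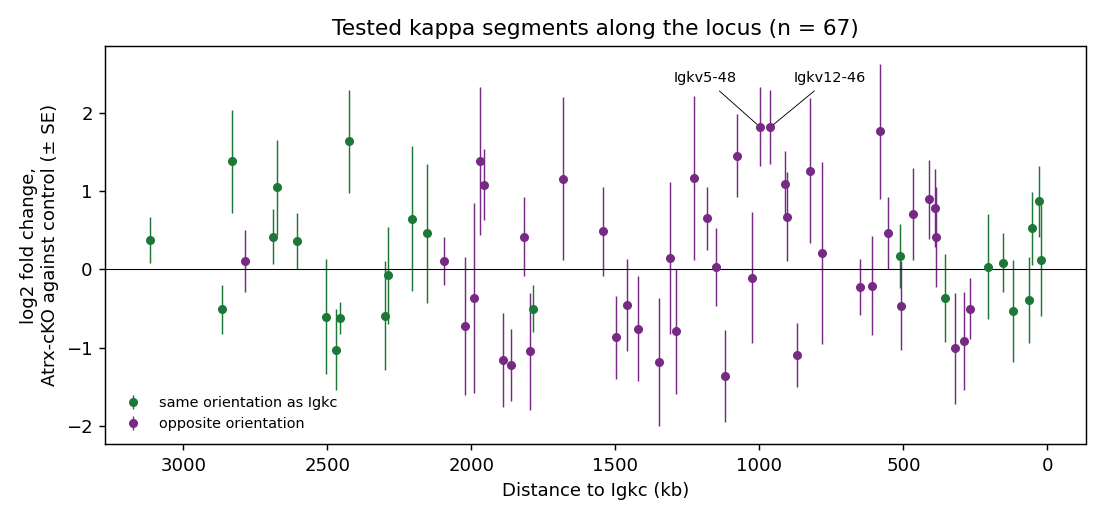
Log2 fold change (Atrx-cKO against control, ± standard error) of the 67 tested kappa segments by distance to *Igkc* in kb, coloured by orientation. Positive and negative values occur along the whole locus, with medians of 0.10, 0.09 and 0.11 in the near, middle and far sets.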

How the data were processed

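Polyadenylated RNA from 6 tibias was made into strand-specific libraries and sequenced as 150-base paired-end reads. The authors deposited raw counts of reads per Ensembl gene, 1 file per library, on GRCm38, and the labels name DESeq2. The aligner and counter were not given in the sources used here. Tallies of reads on no feature (51.6% to 52.4% of each file), ambiguous reads (0.644% to 0.701%) and reads without a unique alignment (3.69% to 4.56%) stayed out of library sizes. A read that joins a V segment to a constant gene overlaps 2 genes and may be among the ambiguous, which was not tested, nor was loss of reads through somatic mutation.

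Gene types and symbols came from GENCODE M21, which held 55141 of the 55401 identifiers. Counts were filtered with filterByExpr, scaled by TMM and tested with the quasi-likelihood test of edgeR 4.0.16 in R 4.3.3 over all 20636 genes kept, with Benjamini-Hochberg adjustment. DESeq2 1.42.0 was the alternative. Summed levels are CPM relative to all counts on genes, and segment levels are TMM-scaled CPM. Usage is a segment's percent of summed light chain V counts. Identities are global alignments of V exons (Biopython 1.88) and the permutation test used SciPy 1.17.1. On simulated counts with 200 of 20636 genes changed, edgeR recovered 193 with 15 false calls and DESeq2 197 with 30. The changed genes were drawn only from those above a set abundance. Each planted change was larger than the log2 fold change of any light chain V segment tested by edgeR with all libraries. These recoveries are totals over all genes and do not give the power for such segments. Recovery among light chain V segments was not tested. Replicates are separate mice by label. Same-numbered libraries had correlations of -0.0032, 0.108 and -0.0996 in their deviations from the group means, so the numbers were not taken as pairs.

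The members, lists and tests were chosen with earlier results of these data known. From the B cell list, 1 gene is not reported here and was left out of its sums and counts. Named segments were the 10 with the highest mean CPM, the largest of each library, all *Iglv* genes, called members, up to 10 per direction of those with separated groups by lowest p, and *Igkv5-48* and *Igkv12-46*. Other segments, namely relatives and neighbours of these, those at 0 and those named in the closing section, were chosen after their values were seen. Alternatives covered normalization, filter, test, replicate block, left-out libraries and removal of the largest segment. Promoter, recombination signal and protein sequences were not used here.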

Additional observations from a re-analysis of the deposited data

How the results depend on the processing

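With edgeR, 0 light chain V segments were called under every normalization, filter and left-out library tried, and with the replicate block, where all genes called also fell from 3 to 0. The replicate block changed no other call. Over all genes, edgeR called 5 with no filter on low counts, 1 with at least 10 counts in every library and 0 to 5 with 1 library left out (0 on leaving out replicate 1 or 2 of Atrx-cKO or replicate 2 of control). DESeq2 called 23 genes, 2 of them members. DESeq2 without 1 library, added after the data were seen, called 0 to 5 members, with 5 without control replicate 1, 0 with Atrx-cKO replicate 3 left out, 2 when replicate 2 of Atrx-cKO was left out and 1 in each of the other 3 fits. The segments called were not always the 2 called with all libraries. Without Atrx-cKO replicate 1 or control replicate 2, the 1 member called was neither of them. The lowest DESeq2 adjusted p among members was 0.00303 and 0.0127 in these fits. Of the 2 called without Atrx-cKO replicate 2, 1 was a different segment. The 5 called without control replicate 1 included both. The cause was not tested.

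Of the 15 named segments, 5 changed sign with 1 library left out. *Igkv19-93* ran from -2.02 to 1.78 on the log2 scale (0.05 without either of replicates 2 and 3 of Atrx-cKO, 1.78 without control replicate 1) and was at 0.13 with the replicate block. *Igkv10-96* ran from -0.15 to 0.40, *Igkv10-94* from -1.26 to 0.43, *Igkv8-30* from -1.10 to 0.25 and *Iglv2* from -0.40 to 0.29.

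Families with separated groups numbered 4 to 6 with 1 library left out, where separation is easier to reach, against 3, and 2 with counts divided by exonic length or with segments of at least 100 summed counts alone. The mean Bray-Curtis distance between genotypes exceeded that within them by 0.0040 to 0.0518 with 1 library left out and by 0.0671 when the largest segment of each library was removed. That removal took *Igkv1-117* from the Atrx-cKO libraries alone, which by its own construction sets the genotypes apart. The distance of 0.0671 therefore cannot be read as a difference in usage. For the same reason the difference in the *Igkv1* share moved to -10.0 percentage points. The difference in lambda share was 1.44 to 3.37 percentage points with 1 library left out. With 6080 to 10145 light chain V counts per library, 3 mice per genotype limit the precision.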

Other observations

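Light chain V pseudogenes, which are not members, took few counts, 34, 20 and 30 in Atrx-cKO and 25, 11 and 13 in control. As a percent of pseudogene and member counts together they came to 0.346%, 0.318% and 0.334% in Atrx-cKO and 0.246%, 0.175% and 0.213% in control. The groups did not overlap in this share, but the counts themselves, 11 to 34 per library, did. Of all genes tested, 8.31% had groups that did not overlap in CPM. Some rare segments had most of their counts in 1 mouse, in either genotype. *Igkv9-123* had 58 of its 71 counts in Atrx-cKO replicate 3, *Igkv9-129* 40 of its 54 in Atrx-cKO replicate 2, *Igkv4-80* 86 of its 120 in control replicate 2 and *Igkv7-33* 18 of its 21 in control replicate 3. The surrogate light chain gene *Vpreb2* had 12, 16 and 30 counts in Atrx-cKO and 67, 21 and 33 in control, with a log2 fold change of -1.12 (SE 0.57) and overlapping groups, whereas *Vpreb1* was at 0.17 (SE 0.24).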
